A study of Homo sapiens with 12 samples.

Results

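Genes that mark heart muscle were followed here through cultures that had been directed towards another fate, the glucagon-secreting alpha cell of the pancreas. The 10 genes are MYH6, MYH7, MYL4, MYL7, TNNT2, ACTC1, NPPA, NKX2-5, TNNI1 and TNNI3, taken by gene symbol: 10 of the 28278 genes in the count table, all 10 among the 16613 genes that passed the filter on low counts. The list was chosen by symbol, with the levels of these genes in the DMSO and tunicamycin libraries already known, so the difference between the treatments is described for them below and nothing is tested with it.

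Bulk RNA sequencing was done on 12 samples of alpha cells grown from HUES-8, a human embryonic line in wide use, so every sample comes from 1 genetic background. The DMSO group holds 6 samples given the solvent alone, and the tunicamycin group holds 6 samples given tunicamycin at 5 µM. Tunicamycin blocks N-linked glycosylation and so loads the endoplasmic reticulum with misfolded protein. Both groups were kept for 48 h in 30 mL bioreactors stirred at 40 rpm. Samples carry the numbers 1 to 6 in each group. Numbers 1 to 3 form batch 1 and numbers 4 to 6 form batch 2 by their labels, so batch and replicate set cannot be told apart. The labels call the samples biological replicates without naming separate differentiations, and p-values below measure only the spread between these samples.

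Heart muscle contracts by sliding myosin thick filaments along actin thin filaments. Myosin heavy chains (MYH6, MYH7) carry the motor, light chains (MYL4, MYL7) brace its lever arm, and the troponins (TNNT2, TNNI1, TNNI3) sit on actin (ACTC1) and let calcium switch contraction on. NKX2-5 is a homeobox transcription factor of heart precursors, and NPPA encodes atrial natriuretic peptide, a hormone released by atrial muscle. None of them belongs to the alpha cell programme, and pluripotent cells can give rise to heart muscle through mesoderm when differentiation strays.

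The libraries held 17523442 to 28872269 counts assigned to genes. The labelled cell type was checked against its defining hormone. GCG, the glucagon gene, stood at 44815 to 91748 CPM (counts scaled to a common library size, with TMM factors) in the 12 libraries. All 12 genes on an endoplasmic reticulum stress list rose with tunicamycin in edgeR's quasi-likelihood test (median log2 fold change 2.27, against -0.01 over all genes tested). HSPA5, the chaperone BiP, rose by 2.63 on the log2 scale (SE 0.16, adjusted p = 3.73e-07).

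The stretches just upstream of MYH6 and MYL7 are shown because MYH6 had the most counts of the 10 genes and MYL7 the highest level per length in 4 of the 5 richest libraries, and both were high and low in the same libraries. RefSeq's GRCh38.p14 table of promoters had entries for 6 of the 10 genes (MYH6, MYL7, TNNT2, ACTC1, NPPA and TNNI3), from which the 250 bases before each start were searched on both strands. Capitals mark TATAAA, the letters of a TATA box. They also mark CATTCC, the core that TEAD factors bind, or its reverse complement. They further mark TGATAA, which GATA factors can bind, on either strand, and the CArG box, the motif of serum response factor. Both windows read 5′ to 3′ on the gene's own minus strand and stop where the gene begins in GENCODE 29. The MYH6 window covers chr14:23408278-23408523 and the MYL7 window chr7:44141333-44141582.
MYH6: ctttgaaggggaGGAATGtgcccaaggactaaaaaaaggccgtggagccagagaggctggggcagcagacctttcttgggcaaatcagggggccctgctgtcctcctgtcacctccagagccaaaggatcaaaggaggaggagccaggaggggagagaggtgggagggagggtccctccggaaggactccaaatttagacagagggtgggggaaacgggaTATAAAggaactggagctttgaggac
MYL7: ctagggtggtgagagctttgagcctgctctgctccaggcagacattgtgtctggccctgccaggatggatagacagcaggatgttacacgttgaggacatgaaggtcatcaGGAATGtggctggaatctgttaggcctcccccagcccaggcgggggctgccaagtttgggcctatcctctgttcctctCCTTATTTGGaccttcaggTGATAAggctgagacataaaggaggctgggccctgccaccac

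Short windows around matches in ACTC1, NPPA and TNNT2 are added because ACTC1 and NPPA went opposite ways relative to the other genes in most pairs of samples described below, and TNNT2 followed the others most closely by rank. They lie at chr15:34795639-34795668 (ACTC1, CArG box), chr1:11847908-11847937 and chr1:11847861-11847890 (NPPA, TGATAA on either strand) and chr1:201377744-201377773 (TNNT2, CATTCC), all on the minus strand.
ACTC1: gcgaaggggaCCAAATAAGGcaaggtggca
NPPA, distal: agccctgcgggaTGATAActttaaaagggc
NPPA, proximal: cacttggcagctTTATCActgcaagtgaca
TNNT2: tcccctgtcgcaCATTCCtccctccgcagg

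Of the 6 genes in the table, 2 had a CArG box (MYL7 and ACTC1), which 1.16% of all 35116 windows of this length held. CATTCC was found in 4 (11.9% of windows), TATAAA in 3 (10.7%) and TGATAA in 2 (6.66%). AGATAA, another form read by GATA factors, was found in 2 (9.17%). TNAAGTG, the letters bound by NKX2-5, was found in 0 of the 6 (8.73% of windows), and the MEF2 box in 0 (2.8%). Matches were counted per gene but the percentages are per window, and the 6 genes had 8 windows. ACTC1 had several, and its CATTCC match lay only in a window wholly inside the gene. A match describes the letters only. No binding was measured in these samples.

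The 10 genes together took between 0.0009936% of a library's counts (DMSO 2, 281 counts, 95% exact binomial interval 0.0008808% to 0.001117%) and 0.2138% (DMSO 5, 47997 counts, 0.2119% to 0.2157%). These intervals cover counting error only. Among the DMSO libraries the share was 0.05664% in DMSO 1, 0.002094% in DMSO 3, 0.03928% in DMSO 4 and 0.003078% in DMSO 6. Among the tunicamycin libraries it was 0.001882%, 0.001071%, 0.001425%, 0.01877%, 0.1111% and 0.004643% for numbers 1 to 6. DMSO 5, tunicamycin 5, DMSO 1, DMSO 4 and tunicamycin 4 were thus the highest, in that order, and the groups overlapped. In whole-culture RNA, fewer heart muscle cells and less of these RNAs per cell cannot be told apart.

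For 9 of the 10 genes those same 5 libraries stood above the other 7. The separation was wide for MYH6 (56.3 CPM in the fifth highest library and 12.5 in the sixth) and narrow for TNNI1 (10.7 and 9.15). TNNI3 was the exception, with DMSO 3 at 2.11 CPM above tunicamycin 4 at 0.72. GCG stood at 90165 CPM in DMSO 5 and 91748 CPM in DMSO 2, the libraries with the highest and the lowest share of heart gene counts.

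**Figure D1:**
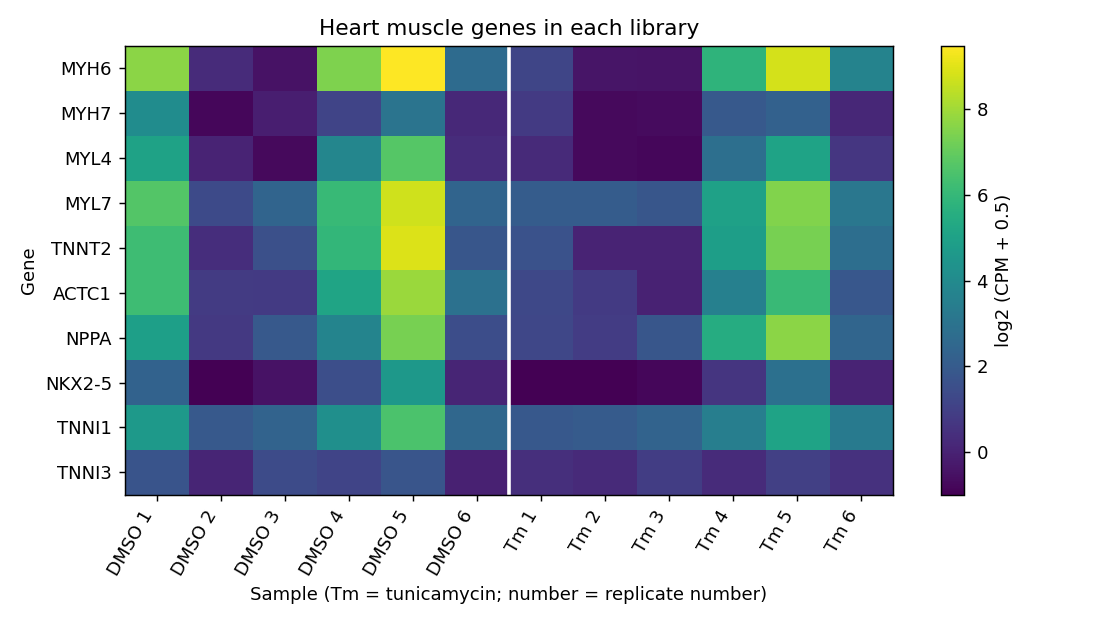
Level of each heart muscle gene (rows) in each library (columns), coloured by log2 (CPM + 0.5), with DMSO left and tunicamycin right of the white line. In 9 of the 10 rows DMSO 1, DMSO 4, DMSO 5, tunicamycin 4 and tunicamycin 5 lie above the other 7 columns, and MYH6 in DMSO 5 (714 CPM) is the brightest cell.

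MYH6, the fast alpha myosin heavy chain of atrial and early heart muscle, lies at chr14:23381990-23408277. It spanned the widest range of the 10 genes. In the DMSO group it had a low of 0.211 CPM (DMSO 3, 4 counts), a median of 90.6 and a high of 714 (DMSO 5, 15238 counts). In the tunicamycin group it had a low of 0.226, a median of 7.12 and a high of 443. DMSO 1 and DMSO 4 were also high, at 199 and 175 CPM, and tunicamycin 4 stood at 56.3.

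MYH7, the slow beta heavy chain, lies next to it at chr14:23412738-23435718. It ran from 0.0739 to 16.7 CPM in DMSO (median 1.2) and from 0.105 to 4.27 CPM in tunicamycin (median 0.928). Its highest library was DMSO 1 and not DMSO 5, where it reached 7.78 CPM. The count of MYH6 per count of MYH7 was therefore 12 in DMSO 1 (95% exact interval 10.9 to 13.2), against 100 in DMSO 4 (72.5 to 144) and 91.8 in DMSO 5 (78.8 to 108). With tunicamycin it was 17 in tunicamycin 4 (13.3 to 22) and 104 in tunicamycin 5 (84.4 to 129). The balance of the heavy chains thus differed between heart-gene-rich libraries beyond counting error. The genes are near-identical in parts, so reads may have been shared between them or left uncounted, and 142 of MYH7's exon bases also lie in an antisense gene.

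MYL7, the atrial regulatory light chain (chr7:44138864-44141332), had a DMSO low, median and high of 2.03, 35.1 and 416 CPM and tunicamycin values of 3.01, 6.03 and 180. MYL4, the atrial essential light chain (chr17:47200446-47223679), had values of 0.106, 7.14 and 105 CPM in DMSO and 0.0754, 0.88 and 33.4 in tunicamycin. Both followed the mean of the other 9 genes closely over the 12 libraries, with Pearson r of 0.993 for MYL7 and 0.989 for MYL4. Per kilobase of the longest principal transcript, MYL7 led the 10 genes in DMSO 1, DMSO 4, DMSO 5 and tunicamycin 5 (167, 107, 680 and 293 RPKM). NPPA led in tunicamycin 4, at 52.5 RPKM against 50.8 for MYL7.

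TNNT2, cardiac troponin T (chr1:201359008-201377762), ranged over 0.775, 31.9 and 487 CPM (low, median, high) in DMSO and 0.527, 4.5 and 161 in tunicamycin. It came second to MYL7 per length in DMSO 5 (366 RPKM). ACTC1, cardiac alpha actin (chr15:34788095-34795726), ranged over 1.22, 20.6 and 241 CPM in DMSO and 0.49, 2.49 and 67.4 in tunicamycin. Of its exon bases, 367 lie in an antisense gene, and whether the counting used strand was not stated. Both genes again peaked in the number 5 libraries.

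The inhibitory troponins differed from each other. TNNI1, the slow skeletal form that immature heart muscle also uses (chr1:201403768-201429866), was present in every library at 3.19 CPM or more. It reached 92.1 CPM in DMSO 5 and 33.2 in tunicamycin 5. TNNI3, the form of mature heart muscle (chr19:55151767-55157773), never passed 2.9 CPM. Its DMSO low, median and high were 0.484, 1.91 and 2.9 CPM, and its tunicamycin values 0.685, 0.869 and 1.49.

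The count of TNNI1 per count of TNNI3 was 31.7 in DMSO 5 (24.6 to 41.5) and 22.3 in tunicamycin 5 (15.7 to 32.9). It was 2.17 in DMSO 3 (1.48 to 3.25) and 3.39 in tunicamycin 3 (2.32 to 5.06). TNNI3 was thus little higher where the other genes were high, and its r with the mean of the others was 0.643, the lowest of the 10. It shares 496 exon bases with an overlapping gene on its strand, so its counts are uncertain.

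NKX2-5 (chr5:173232109-173235357) was the only gene of the 10 with no count in some libraries. It stood at 0 in DMSO 2, tunicamycin 1 and tunicamycin 2, which at 3 counts allows up to 0.111, 0.123 and 0.158 CPM. Its values were 23.8 CPM in DMSO 5, 4.4 in DMSO 1 and 2.33 in DMSO 4. Tunicamycin 5 held 6.83 CPM and tunicamycin 4 held 1.06. The factor was thus detected with most counts in the libraries richest in the contractile genes, and its r with the mean of the others was 0.972.

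NPPA (chr1:11845709-11848345) had a DMSO low, median and high of 1.18, 7.99 and 159 CPM and tunicamycin values of 1.32, 3.9 and 204. Its highest library was tunicamycin 5, and tunicamycin 4 at 44.9 CPM stood above DMSO 1 at 29.7. No other of the 10 genes had its highest value in a tunicamycin library. It shares 286 exon bases with genes on the opposite strand.

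At an adjusted p of 0.05, 0 of the 10 genes were called between tunicamycin and DMSO by edgeR's quasi-likelihood test (batch in the model), where 8.12% of all genes were called, 4.70% higher and 3.42% lower. Since the list came from this contrast, nothing is read from that count. With edgeR 2 of the 10 had an unadjusted p under 0.05, as did 3724 of all 16613 genes. DESeq2 called 0 of the 10 with 6 under 0.05, where it called 2096 of all genes with 3952 under 0.05. The fitted log2 fold change was negative for all 10, with a median of -2.43 beside -0.01 over all genes tested. It ran from -3.04 for MYH6 (SE 1.77, adjusted p = 0.342) to -0.78 for NPPA (SE 1.14, adjusted p = 0.745). ACTC1 had the lowest adjusted p, at 0.162 (-2.89, SE 1.18). For all 10 genes the DMSO and tunicamycin values overlapped.

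These fold changes leaned on the number 1 samples. From DMSO 1 to tunicamycin 1, MYH6 fell from 199 to 1.76 CPM, MYL7 from 102 to 3.6, TNNT2 from 75 to 2.62 and ACTC1 from 74.7 to 1.92. No other pair held a high and a low library. Without both number 1 samples the median log2 fold change of the 10 genes was -0.82, with 0 called (6.32% of genes called, 3.86% higher and 2.46% lower) and 0 at an unadjusted p under 0.05. Without DMSO 1 alone, MYH6 stood at -0.54, ACTC1 at -1.29, MYH7 at 0.14 and NPPA at 0.35.

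Samples of the same number deviated together over all genes, with same-number correlations of 0.126 to 0.642, so the numbers were also used as a block. For numbers 4 and 5 the highest correlation with another number (0.262 and 0.266) exceeded that with their own (0.126 and 0.19). Under that block 2 of the 10 genes were called lower, where 17.8% of all genes were called, 9.19% higher and 8.60% lower. They were ACTC1 (-2.08, SE 0.49, adjusted p = 0.0128) and MYL4 (-1.94, SE 0.59, adjusted p = 0.041), by edgeR's quasi-likelihood test. The median of the 10 was -1.31. Without the number 1 pair the blocked fit called 3 lower (ACTC1, MYL4 and NKX2-5, with 13.4% of genes called, 7.22% higher and 6.14% lower), and their smallest adjusted p was 0.00054 for ACTC1, with a median of -0.52 over the 10. The blocked count ran from 0 without number 5 to 4 without number 6 (ACTC1, MYL4, NKX2-5 and TNNT2). For those fits the share of all genes called was not computed, so nothing is read from that range. These calls describe the contrast that chose the list.

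Pair by pair, ACTC1 was the only one of the 10 genes lower with tunicamycin in 6 of 6 pairs. Its differences in log2 (CPM + 0.5) were -4.96, -0.04, -0.79, -1.54, -1.83 and -1.09 for numbers 1 to 6. TNNT2 and MYL4 were lower in 5 of 6, with number 6 the exception for both (0.98 and 0.33). NKX2-5 was lower in 5 and equal, at 0 in both samples, in number 2. MYH6, MYL7, TNNI1, TNNI3 and MYH7 were lower in 4 of 6. NPPA was higher in 4 of 6, with differences of -3.69, 0.11, -0.1, 1.78, 0.36 and 0.93.

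**Figure D2:**
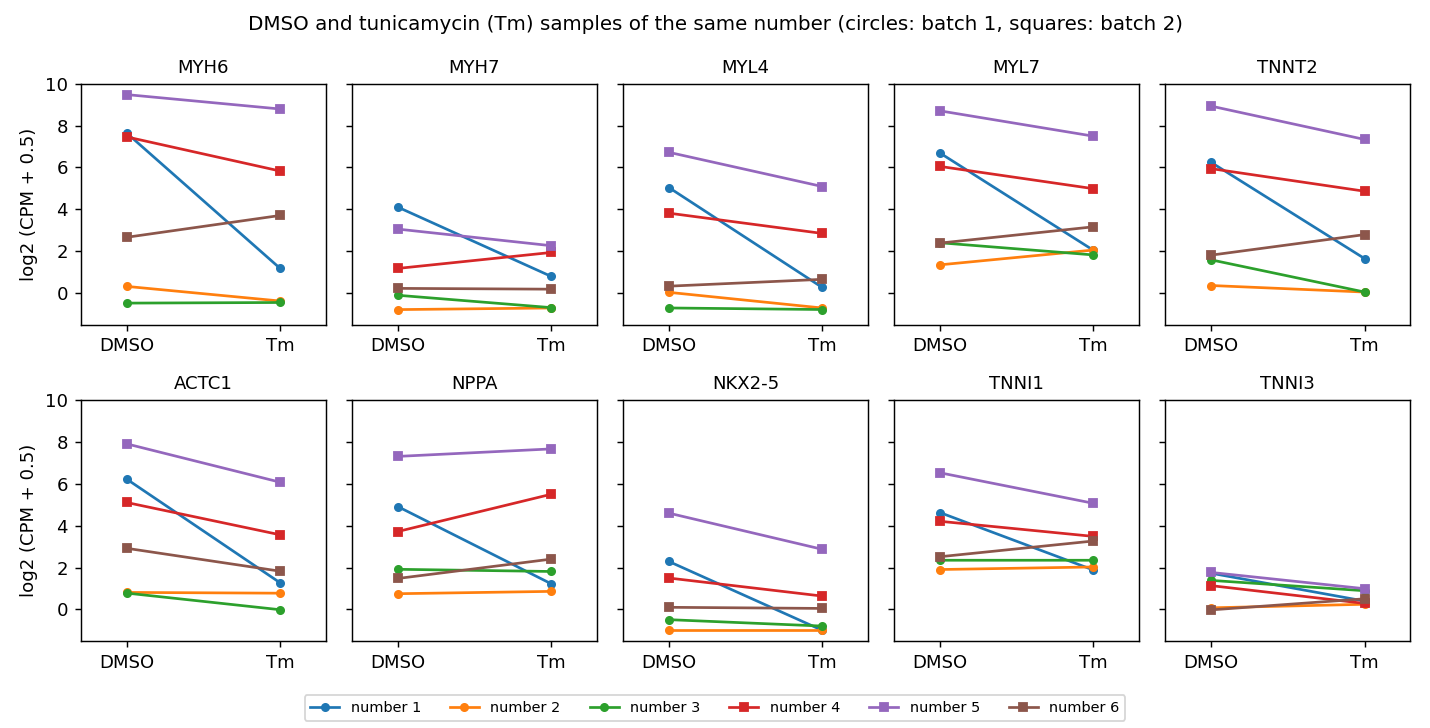
Each panel shows 1 gene, with a line from the DMSO to the tunicamycin (Tm) sample of the same number on a log2 (CPM + 0.5) axis; circles are batch 1 and squares batch 2. The number 1 line falls steeply in 9 of the panels and by 1.33 in TNNI3, ACTC1 falls or stays level in each pair, and NPPA rises in the pairs 4, 5 and 6.

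Each gene was then set against the mean log2 level of the other members in its own library. On this scale NPPA was higher with tunicamycin in 6 of 6 pairs, by 0.32, 0.19, 0.38, 2.67, 1.66 and 0.57. Its rise was the largest among the heart muscle genes only in numbers 4 and 5. In the other pairs another of these genes rose more. TNNI3 did so in number 1 (by 2.95), MYL7 in number 2 (0.85) and MYH6 in numbers 3 and 6 (0.53 and 0.7). ACTC1 was lower in 5 of 6, by values of -1.08, 0.03, -0.39, -1.03, -0.77 and -1.68. In raw counts NPPA was set against TNNT2. NPPA per TNNT2 count was 0.209 in DMSO 4 (0.182 to 0.239) and 1.57 in tunicamycin 4 (1.42 to 1.75), and 0.326 in DMSO 5 (0.314 to 0.339) and 1.27 in tunicamycin 5 (1.21 to 1.32). In number 6, by contrast, it was 0.765 (0.522 to 1.11) and 0.75 (0.572 to 0.981), intervals that overlap.

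ANKRD1, a stress-responsive sarcomere protein, moved the same way as NPPA on this scale. Relative to the 10 genes it was higher in 6 of 6 pairs, by 4.71, 1.24, 1.55, 2.27, 2.2 and 0.69, and it rose on its own scale by 1.08 (SE 0.31, adjusted p = 0.0458, edgeR). It stood at 20.7 to 71.6 CPM in DMSO and 47.6 to 150 CPM in tunicamycin, so it was also abundant in libraries poor in the 10 genes. NPPB, the B-type natriuretic peptide, and ACTA1, skeletal alpha actin, which were picked out after their values had been seen, were likewise higher than the 10 genes in 6 of 6 pairs, by 1.28 to 4.77 and 0.4 to 4.26. The scale subtracts the mean level of the 10 genes, so a gene that does not follow them rises wherever they fall. In number 1 the differences before that subtraction were 0.73 for ANKRD1, 0.28 for ACTA1 and -3.69 for NPPA. On their own scales NPPB and ACTA1 were both higher in 6 of 6 pairs. Without the block neither passed edgeR's test (NPPB 1.91, SE 0.58, adjusted p = 0.0594, and ACTA1 1.38, SE 0.65, adjusted p = 0.227). With it edgeR called both higher (NPPB 2.11, adjusted p = 0.000191, and ACTA1 1.81, adjusted p = 0.00832), as it did 9.19% of all genes. As both were picked by their values, nothing is read from these calls. Other heart genes set on this scale (XIRP1, ACTN2, MYBPC3, TNNC1, CSRP3, HSPB7, GJA5, TRDN and CKM) each rose in some pairs and fell in others.

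**Figure D3:**
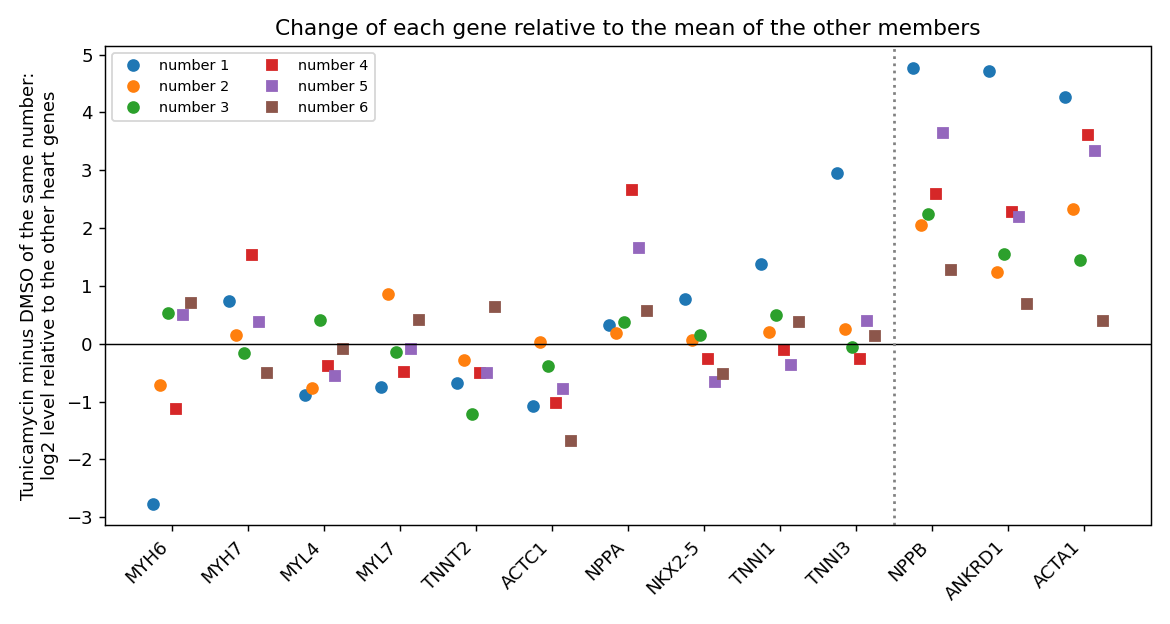
Tunicamycin minus DMSO of the same number, in log2 level relative to the mean of the other members, for the 10 genes and for NPPB, ANKRD1 and ACTA1 (right of the dotted line); circles are batch 1 and squares batch 2. All 6 points lie above 0 for NPPA, NPPB, ANKRD1 and ACTA1, while 5 of 6 lie below 0 for ACTC1.

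By batch, the 10 genes were not called either: 0 of 10 differed between batch 2 and batch 1, where 3.79% of all genes were called by edgeR, 1.99% higher and 1.81% lower. The fitted difference was above 0 for all 10 genes, though by only 0.0007 for TNNI3. Its median over the 10 was 3.18 on the log2 scale, beside -0.02 over all genes. Of the 10, 8 had an unadjusted p under 0.05 by edgeR, as did 4046 of all 16613 genes. DESeq2 called 7 of the 10 higher in batch 2, where it called 1880 genes in either direction. Without DMSO 1, edgeR called 8 of the 10 higher in batch 2, with a median of 5.18, where it called 1371 genes in either direction. Leaving out any other single sample, it called 0 of the 10. Without DMSO 5 the median was 2.675, with 0 of the 10 at an unadjusted p under 0.05 by edgeR. In the edgeR fit of all samples the lowest adjusted p was 0.0826, for TNNI1 (2.02, SE 0.64). TNNI3 was level between batches (0.00, SE 0.40). Of the highest 5 libraries, all but DMSO 1 are in batch 2.

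Within batch 1 alone the median tunicamycin log2 fold change was -3.54 over the 9 genes that passed its filter, and within batch 2 alone it was -1.13 over all 10, with 0 called in either. The interaction of treatment and batch had a median of 2.95. It was called for 0 of 10 genes and 0 of all 16613 (0%). At an unadjusted p under 0.05, edgeR had 0 of the 10 and 157 of all genes, and DESeq2 had 1 of the 10. With the replicate block it was again called for 0 genes, and 6 of the 10 had an unadjusted p under 0.05 by edgeR (median 2.82). Without DMSO 5 and no block 3 did, and without any other single sample 0 or 1 did. Counts over all genes are not given for these fits, so nothing is read from them. The unblocked median was -1.18 without DMSO 1, 5.13 without DMSO 5 and 1.12 without tunicamycin 5. The response of these genes was thus not called different between batches after adjustment over all genes.

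The genes whose pattern was most like that of the 10 were found by Pearson correlation with their mean log2 level over the 12 libraries, among the other 16603 genes tested. The highest were TNNC1 (troponin C of slow and heart muscle, r 0.99), TRIM55 (a sarcomere ubiquitin ligase, 0.988), MYL9 (a regulatory light chain shared with smooth muscle, 0.986), JPH2 (which ties the sarcoplasmic reticulum to the cell membrane, 0.986) and TECRL (0.984). MYBPC3 (myosin-binding protein C, 0.982), CSRP3 (a Z-disc protein, 0.981), HSPB7 (a small heat shock protein of heart, 0.98), ACTN2 (Z-disc alpha-actinin, 0.978) and MYOZ2 (0.975) followed. Spearman's rho for these 10 was 0.916 to 0.986. The number of genes over 0.9 was 34. All libraries share the same steps between high and low levels, so these values describe likeness and carry no p.

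Without the 2 libraries farthest from the median, DMSO 5 and tunicamycin 5, the same 10 genes were again the 10 most alike, with r of 0.959 to 0.98. Over the 6 DMSO libraries alone, 5 of the 10 were shared. TNNC1 can stand for the group. It had 68.5 CPM in DMSO 5, 28.8 in tunicamycin 5, 18.9 in DMSO 1, 6.26 in DMSO 4 and 6.14 in tunicamycin 4, and at most 0.704 in the other 7 libraries. TECRL, an endoplasmic reticulum protein of heart muscle that was on no list, stood at 32.2, 19.4, 10.1, 8.54 and 4.41 CPM in the same libraries and at most 0.655 elsewhere.

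Other sarcomere genes were followed as a list of 32, of which 26 passed the filter. Tunicamycin raised 2 of them (NEBL by 0.49, adjusted p = 0.0483, and ANKRD1) and lowered 0, with a median log2 fold change of -0.44, by edgeR. Both calls were near the threshold, the block called 4 higher and 2 lower, and 4.70% of all genes were called higher. Of the 26, 13 had r above 0.9 with the 10 genes. MYL3, the ventricular essential light chain, reached 3.54 CPM in DMSO 1 and 3.23 in DMSO 5, and MYL2, the ventricular regulatory light chain, at most 0.412 CPM in any library. SMPX and TRIM63, which also failed the filter, peaked in DMSO 5 at 10.1 and 6.89 CPM. XIRP1 (a repeat protein of striated muscle) was highest in tunicamycin 5, at 18.9 CPM against 9.84 in DMSO 5. UNC45B and SMYD1, both helpers of myosin folding and assembly, reached 7.17 and 11.5 CPM in DMSO 5.

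Calcium handling and excitation genes were mixed. Of 21 tested of 24, 1 rose and 0 fell (4 and 1 under the block). ATP2A2, the calcium pump SERCA2, rose by 1.07 (SE 0.12, adjusted p = 7.27e-05, edgeR), from 365 to 531 CPM in DMSO to 782 to 1031 CPM in tunicamycin, groups that did not overlap. Its r with the 10 genes was -0.26. KCNH2, a potassium channel that was abundant in all libraries (87.4 to 148 CPM), also had a low r, 0.21. TRDN and GJA5 (an atrial gap junction protein) instead followed the 10 genes, with r of 0.956 and 0.974, and GJA5 stood at 32 CPM in DMSO 5 and 6.97 in tunicamycin 5.

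Among heart transcription factors 7 of 25 tested fell with tunicamycin and 0 rose (11 fell and 1 rose under the block; median -0.72 without it), with 3.42% of all genes called lower. GATA6 fell by 0.97 (adjusted p = 0.00138), HEY1 by 1.09 (0.0117), FOXC1 by 1.08 (0.027) and MEF2C by 0.90 (0.00249), by edgeR. These named factors also act in gut, vessel and other tissues, and their r with the 10 genes was 0.083 to 0.621. The other factors called lower, TBX3, TBX18 and HEY2, had r of 0.699, 0.673 and 0.529. TBX5 (r 0.966) and MYOCD (0.926) were the factors that followed the 10 genes above 0.9, and neither passed the test (TBX5 -2.32, SE 1.19, adjusted p = 0.273). SHOX2 was highest in tunicamycin 1 (15.5 CPM) and DMSO 1 (10.7), the pair in which the 10 genes were furthest apart.

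Of 11 tested among 20 heart peptide, energy and oxygen genes, 1 fell (ENO3, by 0.60, adjusted p = 0.0207, edgeR) and 0 rose; under the block 4 fell and 1 rose. HSPB7 in this list reached 77.5 CPM in DMSO 5 and 36.6 in tunicamycin 5, while MB, myoglobin, reached 7.12 and 1.25. SORBS2 was level across libraries (76.8 to 124 CPM).

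Markers of other cell types were read beside the 10 genes, and their part in the results was not tested. Skeletal muscle markers were mostly near 0, with 17 of 20 filtered out. MYOD1 and MYOG, which define that lineage, had at most 19 and 14 counts in any library. The summed level of the skeletal list was 44 to 102 CPM in DMSO and 44.8 to 91.2 in tunicamycin, much of it TTN, which heart and skeletal muscle share, and 0 of its 3 tested genes had r above 0.9. PAX3 and PAX7, factors of muscle precursors and neural crest, were high in both number 1 libraries (PAX3 17.3 and 11.9 CPM, PAX7 2.64 and 8.8) and at most 0.562 elsewhere.

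Epicardial, endocardial and endothelial markers summed to 73.6 to 182 CPM in DMSO and 42.9 to 97.1 in tunicamycin. Of 10 tested of 14, 3 fell and 0 rose (5 and 0 under the block), PECAM1 by 2.13 (SE 0.58, adjusted p = 0.0386, edgeR). The highest sums in this list were those of DMSO 5 (182) and DMSO 1 (168), but 0 of its genes had r above 0.9. Mesenchymal genes summed to 1424 to 3813 CPM in DMSO, highest in DMSO 1, and to 1184 to 2453 in tunicamycin, and 0 of 16 were called (10 lower under the block). Smooth muscle genes summed to 285 to 529 CPM and 339 to 475 CPM, with 1 of 10 tested called higher (TAGLN, by 1.32, adjusted p = 0.000589) and 1 lower (2 and 2 under the block). Alpha cell genes summed to 81910 to 121400 and 61030 to 98070 CPM, with 2 of 18 higher and 2 lower. Liver and gut genes summed to 851 to 1332 and 660 to 853 CPM, with 1 of 11 tested higher and 5 lower (1 and 9 under the block).

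**Figure D4:**
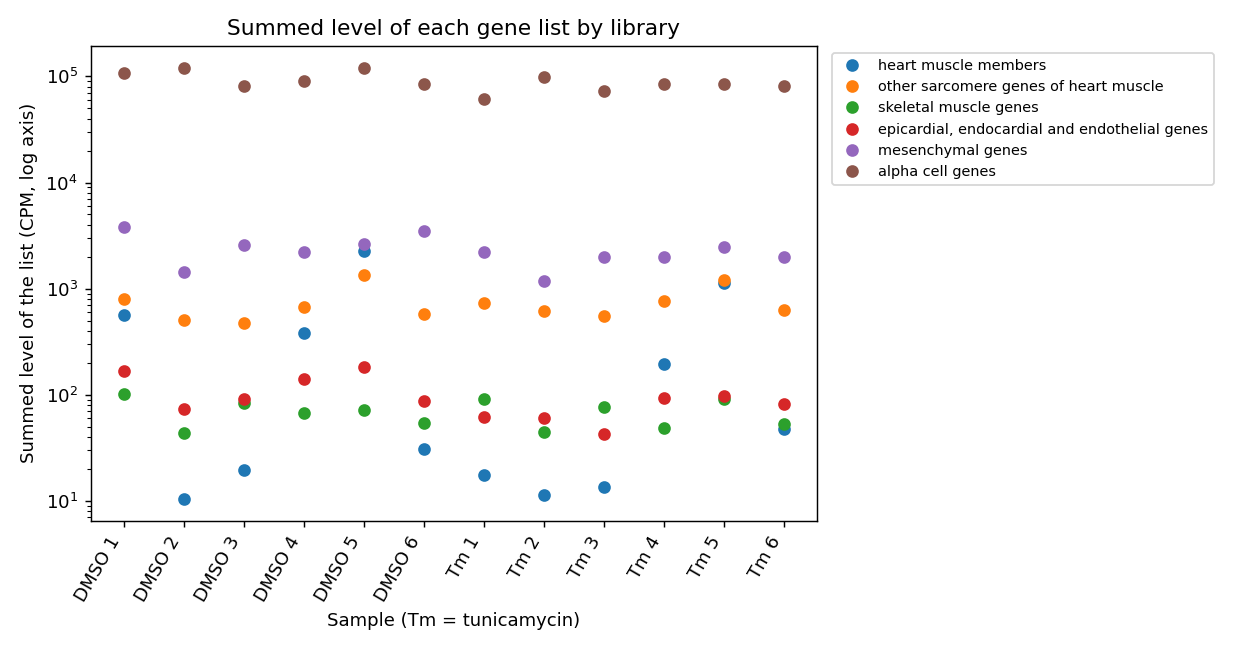
Summed CPM of each gene list on a log axis, 1 point per library, DMSO left and tunicamycin (Tm) right. The 10 heart muscle genes run from 10.4 CPM (DMSO 2) to 2249 CPM (DMSO 5), while the alpha cell genes run from 61030 to 121400 CPM.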

How the data were processed

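RNA was sequenced from 6 DMSO and 6 tunicamycin samples. The authors deposited raw counts per gene for all 12. The build GRCh38 and the tools HISAT2 2.1.0, featureCounts 2.0.6 and cutadapt 4.4 are named in the submitters' processing notes; the annotation and the strand setting were not given in sources used here. The 10 genes and all gene lists were chosen with earlier results of these data known. Genes were filtered by edgeR's filterByExpr by group (11665 of 28278 removed) and scaled by TMM. Then edgeR 4.0.16 (R 4.3.3) fitted quasi-likelihood models with treatment and batch to all 12 samples, with Benjamini-Hochberg adjustment over 16613 genes. DESeq2 1.42.0 and limma-voom 3.58.1 were alternatives. Levels are CPM, and logs add 0.5 CPM. RPKM used the longest principal transcript in GENCODE 29, from which positions come. Depth was 17523442 to 28872269 counts per sample, so 3 counts, the limit taken for a count of 0, were 0.103 to 0.159 CPM.

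Named genes were the 10; from each other list, up to 4 called genes of highest mean CPM, or the most abundant up to 2 where fewer than 2 were called; any gene whose highest library was 20 times its median with 30 or more counts; and the 10 genes most alike. Tested on simulated data for this contrast (16442 genes, 200 changed), the fit recovered 78% of 2-fold and 95% of 4-fold changes, and 3.35% of calls were false. The simulated samples had no differences between batches or numbers, and the changed genes were picked at random. These rates therefore do not carry over to the 10 genes, whose SEs reached 1.77 (MYH6). No pair of libraries within a group matched within sampling noise; pairs across groups were not compared. The pairing by number was checked on deviations from group means within each batch: same-number r was 0.533, 0.642, 0.59, 0.126, 0.19 and 0.174, over the 0.1 taken as pairing. The highest r with another number was 0.266, 0.262, 0.124, 0.262, 0.266 and 0.124, above the same-number value for numbers 4 and 5.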

Additional observations from a re-analysis of the deposited data

Results flagged for a closer look

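In 8 of the 10 genes, number 5 stood far above the other libraries of its group in CPM, in both groups, by Dixon's gap test at the 95% level. The genes without such a library were MYH7 and TNNI3. In DMSO 5 the levels were 714 CPM for MYH6, 105 for MYL4, 416 for MYL7, 487 for TNNT2, 241 for ACTC1, 159 for NPPA, 23.8 for NKX2-5 and 92.1 for TNNI1. The next library was DMSO 1 in each of these 8 genes. In tunicamycin 5 the levels were 443 CPM for MYH6, 33.4 for MYL4, 180 for MYL7, 161 for TNNT2, 67.4 for ACTC1, 204 for NPPA, 6.83 for NKX2-5 and 33.2 for TNNI1, with tunicamycin 4 next. Of 20 groups tested, 16 held such a library. Chance marks about 1 group in 20 where values are normally spread, but CPM was skewed here, so that rate need not hold. In log2 (CPM + 0.5) MYH6 stood at 9.48 in DMSO 5, 7.64 in DMSO 1 and -0.49 in DMSO 3, a smaller gap for its range. The genes share their libraries, so the 16 are not separate events.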

How the results depend on the processing

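Against 1349 genes called between tunicamycin and DMSO, DESeq2 called 2096, the replicate block 2954, batch 1 alone 57 and batch 2 alone 654. Fewer samples entered the batch fits. Leaving out 1 sample gave 792 (without tunicamycin 4) to 1423, and leaving out 1 number 579 (number 4) to 1449; without number 5 it gave 705. The block left the interaction at 0 calls. For batch 2 against batch 1 (630), DESeq2 called 1880 and leaving out 1 sample gave 25 (without tunicamycin 5) to 1371 (without DMSO 1). The interaction had 0 calls under every alternative run (157 genes at an unadjusted p under 0.05 by edgeR). The cause of these shifts was not tested beyond sample number.

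Over 34 alternatives for treatment, NPPA was above 0 in 9 and MYH7 in 1. The median of the 10 genes was -0.72 with limma-voom and -1.44 without the batch term; without 1 sample it ran from -3.54 (tunicamycin 5) to -0.71 (DMSO 1). Low counts limit MYL4, MYH7 and NKX2-5 in the 7 poorer libraries. They also limit MYH6 in DMSO 3, tunicamycin 2 and tunicamycin 3, with 4, 5 and 6 counts. The blocked fits without each number and the filter by design were chosen after seeing the data.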
